A study of Drosophila melanogaster with 2 samples.

Results

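Of the 3029 conservative peaks of CG14667-eGFP on the chromosome arms of Drosophila melanogaster, 390 had a summit inside no annotated gene and over 1000 bp from every annotated transcription start. They made up 12.9% of the peaks and are called the intergenic peaks here. The summit is the base at which the authors' peak caller placed the top of the peak, and the genes and starts are those of Ensembl release 115 on dm6, with transposable elements left out. The other peaks comprised 931 inside genes and over 1000 bp from every start, 325 over 500 and up to 1000 bp from the nearest start, and 1383 within 500 bp of a start. Within the conservative list the rule used position alone. The list itself was selected on reproducibility between the replicates, so signal and replicate support are described only for peaks that passed that selection. The values just above the limit were 1004, 1006 and 1021 bp, and the nearest intergenic summits below it lay at 999, 979 and 976 bp.

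The material was whole embryos of 0 to 24 h from a transgenic fly strain that expresses CG14667 fused to eGFP, a green fluorescent protein that serves as the tag for the antibody. Both biological replicates belong to this 1 group, so the study holds no comparison of conditions, and all tissues and stages of the embryo are mixed. Chromatin was sonicated to 200 to 800 bp and precipitated with an antibody against GFP. The labels do not say how the tagged copy is driven.

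CG14667 encodes a C2H2 zinc-finger protein, a member of a large class of proteins whose fingers can read DNA sequence. In the compact fly genome most intergenic space is short, and long gaps between genes often surround developmental genes whose enhancers are spread over the gap. Such gaps also hold insulators, Polycomb response elements, unannotated promoters and repeats. A peak in a gap lies between its flanking genes and is not thereby assigned to either.

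The summits of the intergenic peaks were AT-rich on average but varied widely. The windows of 101 bases around 6 of the 20 strongest summits are shown because they span the range of base composition among those 20, from 14.9% GC between NijA and CG43245 to 56.4% GC between soti and cv-c. They come from the RefSeq copy of dm6 and are read 5′ to 3′ on the plus strand, and capitals mark runs of at least 6 bases made of A and T alone.
NijA to CG43245, chr3L:10752712-10752812: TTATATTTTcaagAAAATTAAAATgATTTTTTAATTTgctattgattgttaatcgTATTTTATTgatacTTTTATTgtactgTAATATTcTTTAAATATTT
lncRNA:CR44603 to lncRNA:CR45695, chr2L:1638735-1638835: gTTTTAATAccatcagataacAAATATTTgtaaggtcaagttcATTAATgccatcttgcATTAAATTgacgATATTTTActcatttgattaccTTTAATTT
COX7AL2 to CG31668, chr2L:2202376-2202476: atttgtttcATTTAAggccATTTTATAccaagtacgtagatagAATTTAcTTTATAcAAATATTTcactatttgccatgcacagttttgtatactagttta
slp1 to slp2, chr2L:3832459-3832559: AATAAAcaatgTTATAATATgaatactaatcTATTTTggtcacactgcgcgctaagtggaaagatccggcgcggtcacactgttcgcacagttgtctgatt
Sox21a to Sox21b, chr3L:14111551-14111651: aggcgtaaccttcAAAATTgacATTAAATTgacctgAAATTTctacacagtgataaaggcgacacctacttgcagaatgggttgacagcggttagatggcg
soti to cv-c, chr3R:14391375-14391475: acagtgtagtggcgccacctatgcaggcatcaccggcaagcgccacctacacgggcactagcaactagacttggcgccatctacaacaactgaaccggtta

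Runs of A and T took up 65.3% of the bases at the NijA summit, 45.5% at the one beside lncRNA:CR44603, 33.7% at the COX7AL2 summit, 20.8% at slp1 and slp2, 19.8% at Sox21a and Sox21b, and 0% at soti and cv-c. The slp1 and slp2 window also held 2 copies of GGTCACAC, the core of the promoter word bound by the zinc-finger protein M1BP. That word was present at 2 of the 390 summits.

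GC fell sharply at the summit. Over the 390 peaks, GC averaged 34.6% ± 0.493 (SE) within 50 bp of the summit, and was lower there than in windows of the same width 300 bp to either side by 10.9 percentage points (mean difference −10.9 ± 0.694, SE). The size depends on the flanks chosen, and with flanks 1000 bp away the difference was −6.45. The summit was below its own flanks in 309 of the 390 peaks, or 79.2%. The mean difference was −11.1 ± 0.407 in the far peaks inside genes and −11.7 ± 0.358 in the peaks within 500 bp of a start. The dip was thus present in each of these classes. Peaks are not replicates of each other, and no test of these differences was made.

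**Figure D1:**
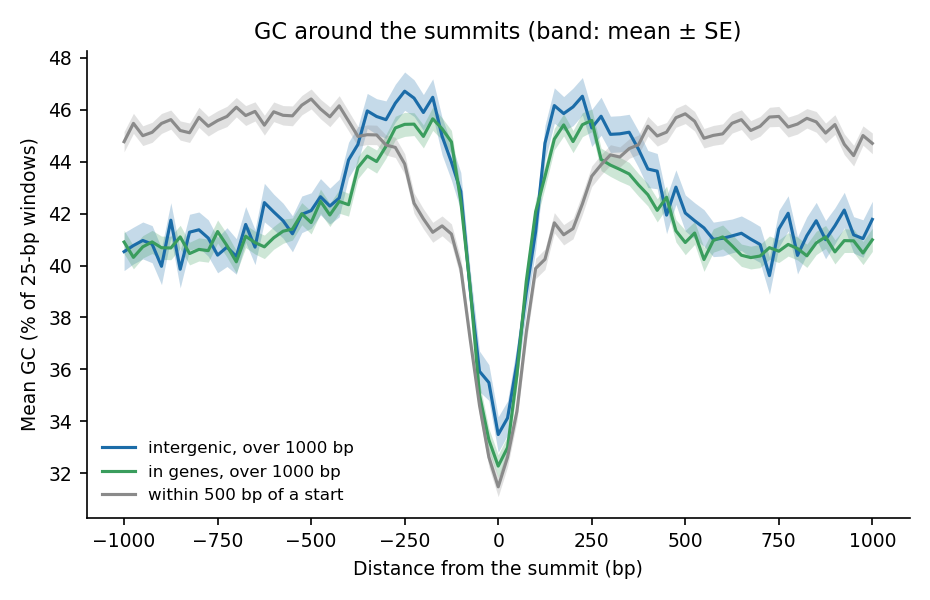
Mean GC of 25-bp windows (vertical axis, percent) against distance from the summit (horizontal axis, bp), with the band showing ± 1 SE over peaks. All 3 classes dip at the summit, to 33.5% in the intergenic peaks, and the intergenic peaks and the far peaks inside genes also have higher GC on both sides of the dip than at 1000 bp.

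The dip was shallowest in the weakest peaks and did not deepen steadily with signal. By tercile of the pooled signal of all conservative peaks it averaged −7.50 ± 1.13 in the weakest, −13.8 ± 1.04 in the middle and −12.4 ± 1.41 in the strongest intergenic peaks. It averaged −12.7 ± 1.33 in the 100 intergenic peaks with the largest pooled signal and −4.75 ± 1.52 in the 100 with the smallest. Runs of at least 6 bases of A and T covered 24.0% ± 0.806 of the summit windows against 11.5% ± 0.619 of windows 300 bp to the left. In peaks within 500 bp of a start the same shares were 29.4% ± 0.454 and 12.9% ± 0.372.

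Known short motifs were searched on both strands in the 101 bases at the summit and in the window 300 bp to the left. Each count is a description of letters and not of binding. The windows differ in base composition, with a mean GC in 25-bp windows of 33.5% at the summit and 45.6% at 300 bp to the left. Counts of AT-rich and of GC-containing words are affected by this difference in opposite ways, and its part was not tested. TATAAAA, the TATA box of promoters, was present at 41 of 390 summits (10.5%, 95% Wilson interval 7.84 to 13.95) and in 10 left windows (2.56%, 1.399 to 4.65). Start peaks had it at 12.1% of their summits, and all conservative peaks on the arms at 10.7%. GAGAG, the core of the sites of GAGA factor, showed the opposite order, at 29 summits (7.44%) and in 65 left windows (16.7%), with 7.56% of all conservative summits. TAATTA, a homeodomain core, was at 32 summits and in 18 left windows, and at 10.1% of all conservative summits. TGCATA, a core of Su(Hw) sites, was at 37 and 18, and at 8.95% of all. GCCAT, the core of sites of the Polycomb-recruiting protein Pho, was at 65 summits and in 89 left windows, and at 13.7% of all conservative summits. CGATA, the BEAF-32 core, was at 47 and 37, and at 14.3% of all. It also lies within TATCGATA, the DRE, which was at 4 summits, in no left window and at 1.02% of all. AAAAAAA was at 50 and 33, and at 13.6% of all, and CATATG, an E-box read by Twist, at 16 and 16, and at 4.09% of all. For the insulator protein CTCF the word was AGGNGGCGC, found at 4 intergenic summits, in 1 left window and at 0.858% of all. The soti and cv-c window shown above holds it on the minus strand. CAGGTAG, read by the early activator Zelda, was at 2 summits, in 1 left window and at 0.363% of all. The M1BP word above was in no left window and at 0.462% of all. GTGGGAA, for the Notch effector Su(H), was at 5 summits, in 8 left windows and at 0.891% of all. TTCNNNGAA, for STAT, was at 5 summits, in 13 left windows and at 2.64% of all. Grainyhead's ACCGGTT was at 1 summit, the one between soti and cv-c, in no left window and at 0.264% of all. The Bicoid word TAATCC was at 12 summits, in 9 left windows and at 3.17%.

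Words of 8 bases ranked on the 2639 other conservative peaks were AT-rich as well. The first was ATTTAAAA, at 7.54% of those summits and 1.67% of their left windows, and at 5.38% of the intergenic summits and 1.79% of their left windows. At least 1 of the first 10 words was at 108 of the 390 intergenic summits (27.7%, 95% Wilson interval 23.5 to 32.3) and in 39 left windows (10%). In the other peaks the shares were 37.7% and 11.7%. The words were chosen on the other peaks, so the 37.7% is raised by that choice and is not comparable with the 27.7%. Against their own left windows (95% Wilson interval 7.40 to 13.4), which the choice did not use, the intergenic summits had the higher share. Both windows come from the same peaks, so the separate intervals are no test of this difference. The words and the summits are both AT-rich, and the part of base composition was not tested.

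Signal in the authors' files is the peak caller's value against a control, on a scale the files do not state. Pooled signal ranks peaks within the conservative list. The replicates' own signals come from separate lists of unknown depth and are set side by side as values only. The pooled signal of the intergenic peaks had a median of 100.3 (95% interval of the median 95.3 to 106.9), with quartiles of 75.8 and 151.0 and a maximum of 1065. The far peaks inside genes had a median of 105.4 (102.3 to 109.4) and the peaks within 500 bp of a start 132.2 (127 to 138). The interval of the intergenic peaks overlapped that of the far genic peaks and lay below that of the start peaks. In all, 41.8% of the intergenic peaks fell in the weakest tercile of the conservative peaks (signal up to 92.2) and 23.8% in the strongest tercile (over 152.4), against 27.2% and 42.5% of the start peaks.

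Both replicates' own thresholded lists held 180 of the 390 intergenic peaks (46.2%, 95% Wilson interval 41.3 to 51.1), where an overlap of 1 bp counted. Over all conservative peaks on the arms the share was 56.2%. It was 48.3% in the far peaks inside genes and 63.8% in peaks within 500 bp of a start. Replicate 1's list alone held 75 intergenic peaks, replicate 2's list alone 42, and neither list 93. Of those 93, candidates in both replicates' longer ranked lists overlapped 90. The 93 were weak, with a median pooled signal of 68.4, against 155 for the 180 peaks in both lists.

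Within a tercile of signal the shares of the classes lay closer together. In the strongest tercile 92 of 93 intergenic peaks (98.9%) were in both lists, beside 97.8% of start peaks. In the middle tercile the shares were 57.5% (49.0 to 65.5) and 63.2% (58.5 to 67.7), and in the weakest tercile 6.75% (3.81 to 11.7) and 11.2% (8.37 to 14.8). The intervals of intergenic and start peaks overlapped in each tercile. All of the 50 strongest intergenic peaks were in both lists, 99 of the 100 strongest were, and 17 of the 190 weakest were. The pooled signal and the replicates' lists come from the same libraries. A rise of the share with pooled signal is therefore largely built in and is no independent evidence of support.

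**Figure D2:**
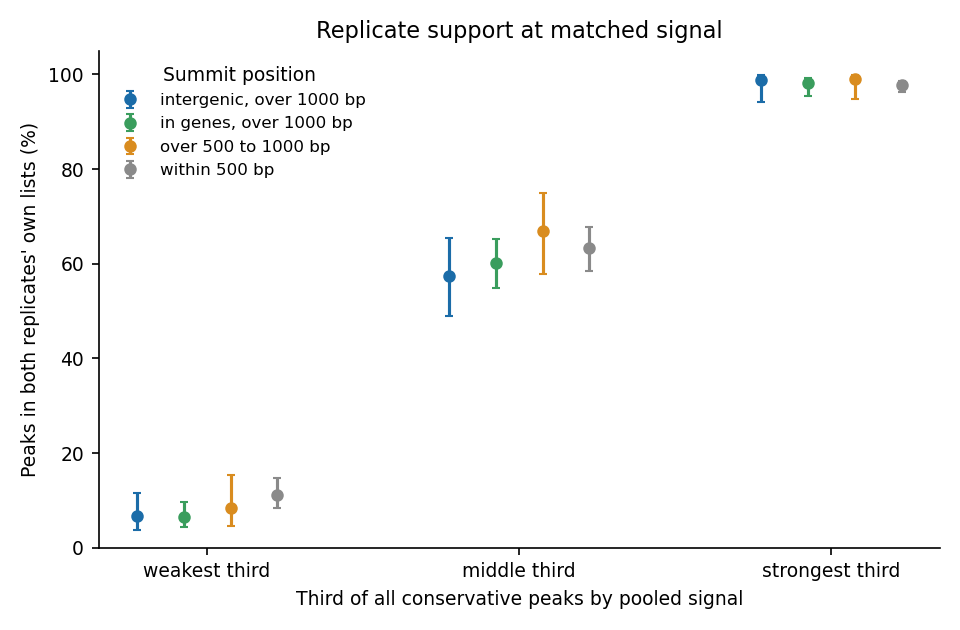
Percent of peaks found in both replicates' own lists (vertical axis) by tercile of pooled signal (horizontal axis) for 4 classes of summit position, with 95% Wilson intervals as bars. Shares rise with signal in every class, from 6.75% to 98.9% in the intergenic peaks, and the classes overlap within each tercile. Pooled signal and the lists come from the same libraries, so the rise is no independent evidence of support.

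Where both own lists held a peak, the value in replicate 1's list was larger at 131 of the 180 peaks (72.8%), with a median log2 difference of 0.25 (SD 0.40 over peaks). In far genic peaks that median was also 0.25, and in start peaks 0.21. With scale and depth unknown, these offsets do not compare the amount of binding in the replicates. Across the 180 peaks the log2 signals of the replicates had a Pearson correlation of 0.83, given as a description, since all points come from the same pair of libraries and from a list selected on reproducibility.

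**Figure D3:**
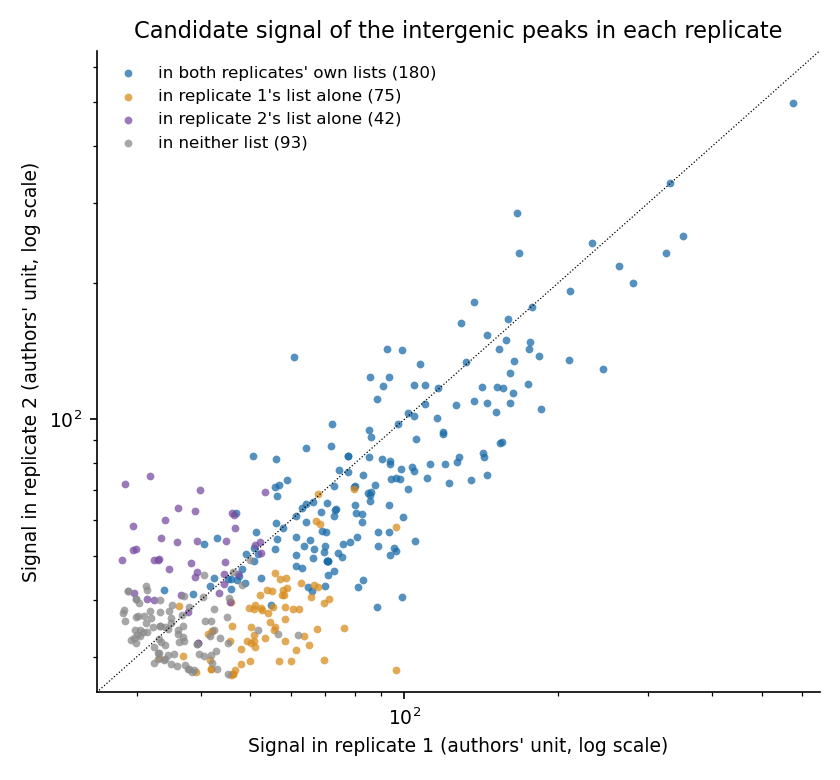
Largest candidate signal overlapping each intergenic peak in the ranked list of replicate 1 (horizontal axis) and replicate 2 (vertical axis), in the authors' unit on log scales, for the 383 peaks with a candidate in both. Colours give membership of the thresholded lists, and the dotted line marks equal signal. Peaks in both lists fill the upper range, up to 575 and 499.7, and those in neither list the lower left corner.

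Peak width went with signal. A width of exactly 336 bp, with the summit at the middle, was recorded for 324 of the 390 peaks (83.1%). Whether that summit marks a measured maximum is not given in the sources used. These peaks had a median signal of 92.0, and 114 of them were in both own lists. The other 66 peaks were narrower, down to 84 bp, had a median signal of 243, and were all in both own lists. The GC dip was −12.2 ± 1.70 in the narrow peaks and −10.6 ± 0.761 in those of fixed width.

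Closely abutting peaks need care in the counts. Each of the 8 intergenic peaks with a signal under 40 (2.64 to 18.1) overlapped a stronger conservative peak. A replicate peak can therefore count for both, and only the one between Doc1 and Argk2 was in both own lists. They lay between CG13407 and Ir94a, lncRNA:CR43846 and klg, Vha16-2 and chrb, shep and lncRNA:CR45741, Doc1 and Argk2, lncRNA:CR44783 and Prosbeta5R1, lncRNA:flam and CG40813, and asRNA:CR44018 and CG6465. They are named for being the full set, chosen after their values were seen. Every other intergenic peak had a signal of at least 55.6. Without the 8, the share in both lists was 46.9% of 382 and the median signal 102.3.

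The strongest intergenic peak lay in the Polycomb gene neighbourhood of 2R. It was at 13035198 to 13035471, in a gap of 36783 bp between Su(z)2 (FBgn0265623) and CG13323, and had a pooled signal of 1065, with 575 in replicate 1 and 499.7 in replicate 2. Su(z)2 encodes a Polycomb group protein, and the summit lay 27433 bp beyond the end of the gene. Next to Psc, which encodes the related Polycomb group protein Posterior sex combs, the gap between CG13321 and Psc held peaks of 484 (279.8 and 200.1 in replicates 1 and 2) and 265 (145 and 109). The Psc gap was 10284 bp long, and the stronger of its summits lay 7787 bp from the Psc end.

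The second strongest peak sat in a short gap between convergent genes. On 2R at 22802838 to 22803100, blw and CycB end toward each other across 1340 bp, and the summit lay 771 bp from the end of blw, which encodes the alpha subunit of ATP synthase, and 570 bp from the end of CycB, the mitotic cyclin B gene. Its pooled signal was 672, with 332 in replicate 1 and 333 in replicate 2.

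Around chinmo, a gene for a BTB zinc-finger transcription factor of temporal identity in the nervous system, peaks stood in neighbouring gaps. The gap of 20910 bp between lncRNA:CR44603 and lncRNA:CR45695 on 2L held 5 peaks, with pooled signals of 71.8, 473, 103, 590.3 and 347 from left to right. The signals in replicates 1 and 2 were 351 and 254 at the strongest, 233 and 245 at the next and 210.1 and 135 at the third. The gap of 4094 bp between lncRNA:CR45695 and chinmo held 2 more, of 99.9 and 263, the latter 1538 bp upstream of a chinmo start with 153 and 143 in the replicates. All but the weakest of these 7 peaks were in both own lists.

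Several of the other strong peaks lay beside genes of known function. The peak between COX7AL2 and CG31668 had a pooled signal of 566 (325 and 233), in a gap of 5808 bp. The peak 3343 bp upstream of foxo, the forkhead factor of insulin signalling, reached 478 (263 and 218), and tRNA:Ser-GCT-2-2 lay on its other side. A peak of 318 (177 and 148) lay between CG7484 and Crtc, a co-activator of CREB. Between slp1 and slp2, which encode forkhead pair-rule factors, the signal was 320.2 (184 and 138), at 4331 bp from the slp2 start. Between Sox21a and Sox21b, genes of HMG-box transcription factors, it was 294 (129 and 163).

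Against the usual order, the value in replicate 2's list was the larger at the peaks between CG13970 and CG10651 (446 pooled, 166 and 285), between dpr17 and CG4702 (405, 167.8 and 232), and between soti and cv-c (314, 137 and 182). Replicate 2's value was also the larger at peaks given above. These lay between blw and CycB, between Sox21a and Sox21b, and between lncRNA:CR44603 and lncRNA:CR45695 (the peak of 473). dpr17 encodes an immunoglobulin-domain surface protein and cv-c a RhoGAP. The peaks between CG43131 and RabGGTa (345, 178 and 177), CG43401 and CG43402 (318, 164 and 134), and CG43245 and lncRNA:CR44544 (307, 158 and 149) were at least as large in replicate 1. All 20 of the strongest intergenic peaks were in both own lists, and the weakest of the 20 had a pooled signal of 294.

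The 390 peaks occupied 290 gaps. The genome that could hold such a peak, outside genes and over 1000 bp from every start, amounted to 35.7 Mb, or 26.0% of the arms, in 4864 gaps, of which 5.96% held a peak. A gap with 1 peak was the rule (219 gaps), 56 gaps held 2, and 15 gaps held 3 or more, which together contained 59 peaks. The peaks were not spread evenly over this length.

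Density fell with distance from starts and with gap length. It was 19.8 peaks per eligible Mb at over 1 to 2 kb from the nearest start (92 peaks), 14.6 at over 2 to 5 kb (134 peaks), 10.9 at over 5 to 10 kb (80 peaks) and 5.77 beyond 10 kb (84 peaks). By gap length it was 22.5 per Mb in gaps of up to 5 kb, 14.7 at over 5 to 10 kb, 15.04 at over 10 to 20 kb, 10.7 at over 20 to 50 kb and 3.50 in gaps over 50 kb. Gaps over 50 kb held 31.1% of the eligible length and 10% of the peaks. Eligible length includes repeats, and whether peaks could be called in all of it was not tested.

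**Figure D4:**
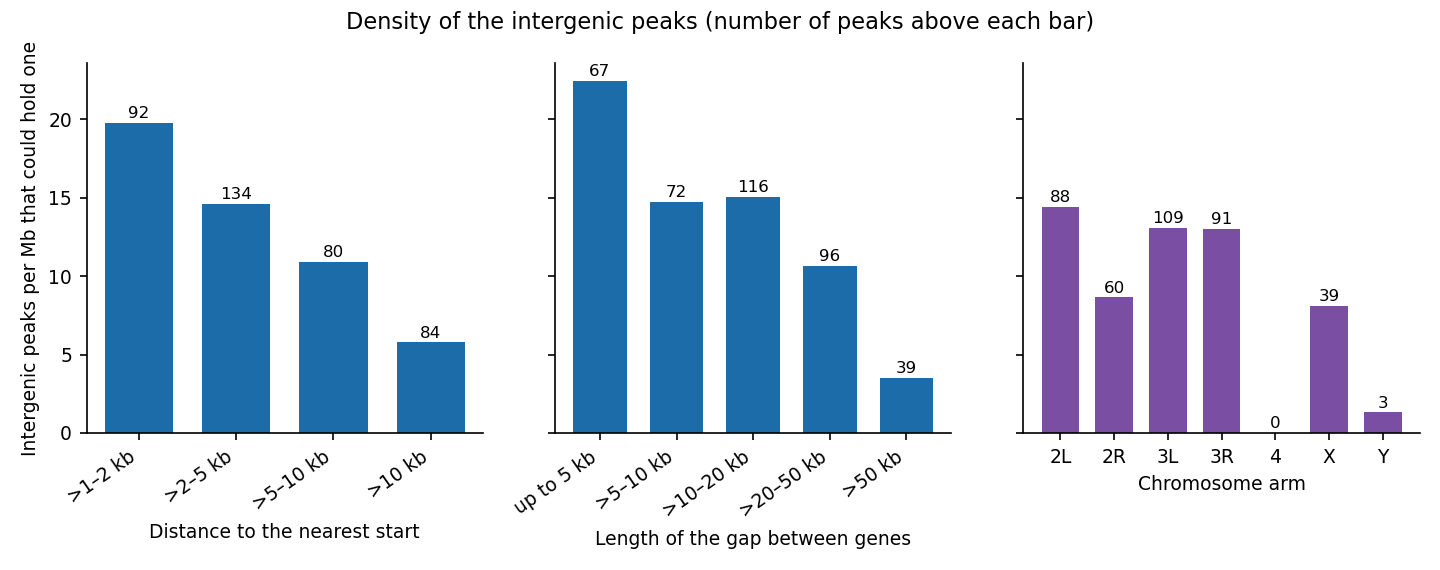
Intergenic peaks per Mb of eligible genome (vertical axis) by distance to the nearest start, by length of the gap and by chromosome arm, with the number of peaks above each bar. Density falls from 19.8 to 5.77 per Mb with distance from starts and from 22.5 to 3.50 with gap length, and 4 has no peak.

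Support and signal were lowest beyond 10 kb from a start and did not fall steadily up to there. Both own lists held 60.9% of the peaks at over 1 to 2 kb (50.7 to 70.2), 44.8% at over 2 to 5 kb, 50% at over 5 to 10 kb and 28.6% beyond 10 kb (20.02 to 39.0). The median signals in these bins were 124, 99.4, 104.2 and 82.6. In gaps over 50 kb the share was 15.4% (6 of 39 peaks), summit GC was 41.8% ± 2.24, and the GC difference was −2.16 ± 2.38, an interval of 1 SE that includes 0. In gaps of up to 5 kb the GC difference was −11.7 ± 1.51. Signal, distance, GC and gap length moved together here, and the part of each was not tested.

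The median gap with a summit in it, counted per peak, was 12692.5 bp long (95% interval 11796 to 14233), and the median distance to the nearest start was 4199.5 bp (3821 to 4716). Eligible gaps had a median length of 3148 bp, and short gaps enter that figure with little eligible length each. For 297 peaks at least 1 flanking gene pointed its 3′ end at the gap, and the median distance to the nearest such end was 4121 bp (3436 to 5035). Within 1 kb of a gene end there were 60 peaks, or 20.2 per eligible Mb, against 11.9 at over 1 to 2 kb, 14.5 at over 2 to 5 kb, 11.1 at over 5 to 10 kb and 6.37 beyond 10 kb.

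By orientation of the flanking genes, gaps between genes on 1 strand held 189 peaks (48.5%, 95% Wilson interval 43.5 to 53.4) and 50.4% of the eligible length. Head-to-head gaps held 89 peaks (22.8%) and 18.6% of the length, and tail-to-tail gaps 108 peaks (27.7%) and 27.2%. Per eligible Mb these were 10.5, 13.4 and 11.1 peaks. A start peak, with a summit within 500 bp of a start of a flanking gene, was present at 46 of the 290 gaps with an intergenic peak (15.9%, 12.1 to 20.5) and at 15.2% of the eligible gaps without one. Gaps of up to 5 kb were 2968 of the 4574 gaps without an intergenic peak and 62 of the 290 with one. The shares over all lengths are thus not matched for length. In each length bin the share was higher in the gaps with an intergenic peak. At over 10 to 20 kb the shares were 19.1% (12.3 to 28.5) and 6.24% (4.45 to 8.67) and the intervals did not overlap. In the other 4 length bins the intervals overlapped. There the shares were 21.0% and 19.2% at up to 5 kb, and 14.3% and 8.76% at over 5 to 10 kb. They were 6.56% and 6.06% at over 20 to 50 kb, and 18.2% and 10.9% over 50 kb.

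The shortest gaps with a peak were tail to tail, as the distance rule requires at such lengths, since a start at the edge would lie within 1000 bp of the summit. The gap between Sol1 and Cyp9f2, a cytochrome P450 gene, was 437 bp long and its summit lay 218 and 220 bp from the 2 gene ends, with a pooled signal of 221 (145 and 75.4). The gap of 491 bp between Act87E, an actin gene, and yrt held a peak of 96.4, in replicate 1's list alone. The gap of 496 bp between Smyd4-3 and CG30026 held a peak of 81.2, also in replicate 1's list alone.

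The gap richest in peaks lay on 3L between tRNA:Ile-TAT-1-2 and CG13898. It was 32964 bp long, its 7 peaks spanned 31329 bp, and 4 of them were in both own lists. The strongest had a pooled signal of 395 (211 and 192), and the next, 528 bp from the end of CG13898, had 208 (93.4 and 124). The other pooled signals were 128, 122, 103, 95.3 and 74.5.

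Further gaps with 5 peaks each lay on 3L. In the gap of 75047 bp between NijA, which encodes a Ninjurin surface protein, and CG43245, the pooled signals from left to right were 68.4, 206, 251, 377 and 209.7, and all but the first were in both lists. The strongest of these had 245 in replicate 1 and 129 in replicate 2. Between lncRNA:CR44363 and CG7560 the signals were 144, 257, 222, 312 and 109 within 6941 bp, with 175 and 143 in the replicates at the strongest. Between vvl, a POU-domain factor gene, and lncRNA:CR45115 they were 166, 76.0, 195, 64.6 and 100.1, and 2 of these 5 peaks were in both lists.

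The other gaps with 3 or 4 peaks varied in signal and support. Between ems, a head gap gene, and Art9 the signals were 145 (80.2 and 64.7), 123 (68.6 and 62.5) and 95.3, the last in neither list. Between Wnt4 and wg, which encode Wnt ligands, they were 99.2, 58.6 and 95.7, and none of the 3 was in both lists. All 3 peaks were in both lists between scyl, an inhibitor of TOR signalling, and lncRNA:CR44720 (107 to 171), and between lncRNA:CR44761 and Ppa, an F-box gene (162 to 287). Between lncRNA:CR45737 and sty, which encodes the signalling inhibitor Sprouty, the signals ran from 89.1 to 253, and 2 of 3 were in both lists.

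Support varied in the remaining gaps of this kind too. Beside 18w, a Toll family receptor gene, 2 of 3 peaks were in both lists (83.6 to 268). Between CG9932 and lncRNA:CR44197 and between lncRNA:CR43846 and klg it was 1 of 3. The klg gap reaches 3 only with a peak of 17.9 that overlapped a stronger peak. None of the 4 peaks between CG43402 and CG31928 was in both lists (72.9 to 114), and none of the 4 in the 567075 bp left of Myo81F at the end of 3R (64.8 to 98.1).

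**Figure D5:**
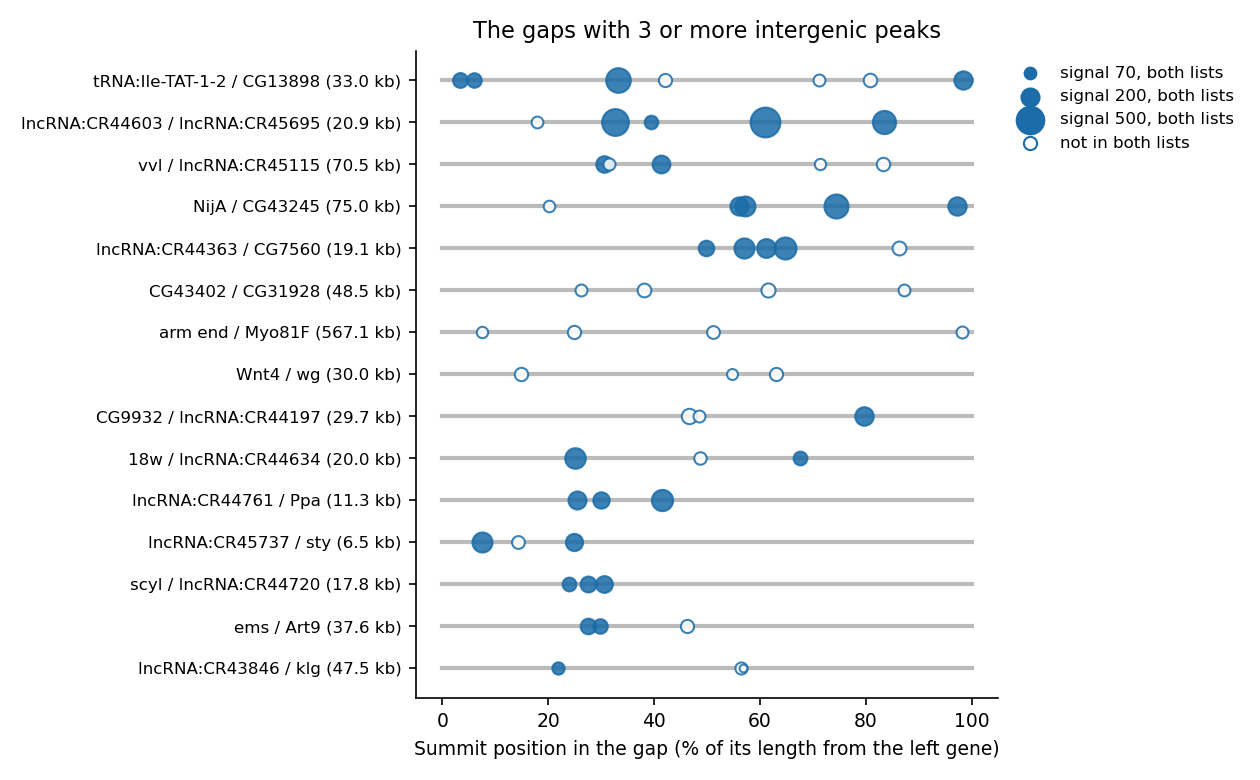
Summit positions in the 15 gaps with 3 or more intergenic peaks (vertical axis, named by flanking genes with their length), as percent of the gap from its left edge (horizontal axis). Symbol area grows with pooled signal, filled symbols are peaks in both own lists, and open symbols are not. The tRNA:Ile-TAT-1-2 gap has 7 peaks, and the CG43402, Wnt4 and Myo81F gaps have open symbols only. The klg gap reaches 3 only with a peak of 17.9 that overlapped a stronger peak.

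Flanking genes were grouped by 15 lists of gene symbols. Of the 7365 genes that flank an eligible gap, 7.58% flanked an intergenic peak. The share was 4 of 9 for pair-rule genes, 3 of 10 for gap and maternal genes, 6 of 16 for signalling ligands, 10 of 51 for other patterning factors, and 0 of 7 for Hox genes. The gaps of the 7 Hox genes hold only 0.0467 Mb of eligible length, so little follows from their 0. The lists differ in eligible length, so peaks per eligible Mb were also compared with the 10.9 over all gaps. The value was 30.9 for pair-rule genes (5 peaks), 29.8 for gap and maternal genes (8 peaks), 31.4 for signalling ligands (6 peaks) and 8.64 for the other patterning factors (8 peaks). The counts are small, some gaps are flanked by 2 genes of a list, and nothing particular to these lists follows from them.

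Among the pair-rule genes, slp1 and slp2 share the 2 peaks of their gap, of 320.2 and 72.1. odd had 2 weaker peaks of 96.6 and 77.6 in the gap beyond its end, and hry, the hairy repressor gene, had 1 of 75.9 upstream. Among the gap genes, oc, which encodes a head homeodomain factor, had 3 peaks of 148, 138 and 87.1, all in both own lists. kni had 1 of 71.1 in neither list. Among the ligands, upd1 of the JAK/STAT pathway had a peak of 135 (58.9 and 73.4), and vn, an EGF receptor ligand, a peak of 124 (66.4 and 65.8). The homeodomain genes otp and tup had peaks of 189 (60.7 and 137) and 124 (70.8 and 48.8).

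Long noncoding RNA genes flanked many of the peaks. They bordered 195 of the 390 peaks (50%) and 38.4% of the eligible length, or 14.2 peaks per eligible Mb, and 155 of the 1151 such genes at eligible gaps flanked a peak. tRNA genes flanked 16 peaks, at 32.8 per eligible Mb, and 7 of the 16 lie in the single gap beside tRNA:Ile-TAT-1-2. The others included the foxo gap and a peak of 264 (152 and 118) beside tRNA:Phe-GAA-1-7.

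In the remaining lists, 5 of 69 cuticle genes flanked 4 peaks (20.6 per eligible Mb), led by Cpr76Ba with 282 (145 and 153). For synaptic adhesion genes it was 3 of 48 genes and 3 peaks (2.07 per eligible Mb), and dpr17 alone had a peak in both lists. Of the chemoreceptor and odorant-binding genes, 7 of 116 flanked 9 peaks (9.76 per eligible Mb), led by Gr89a with 172 (93.7 and 81.1). Of the ribosomal protein genes, 4 of 32 flanked 4 peaks (9.13 per eligible Mb), with 115.04 at RpL22-like as the highest. A single peak each was flanked by 1 of 32 cytochrome P450 genes (Cyp9f2, 8.03 per eligible Mb), 1 of 7 snRNA and snoRNA genes (snRNA:U2:14B, signal 125, 13.4 per Mb) and 1 of 19 miRNA genes (mir-219, signal 98.3, 2.43 per Mb). None of 5 histone genes flanked a peak, and their gaps hold 0.0187 Mb of eligible length.

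By arm, density per eligible Mb was 14.4 on 2L (88 peaks), 13.1 on 3L (109), 13.0 on 3R (91), 8.65 on 2R (60) and 8.08 on X (39). X had the most conservative peaks of all kinds per Mb of its length, 26.3, and 6.31% of its peaks were intergenic and far from starts. On 4 there was 1 conservative peak and it was not of this kind.

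All 3 conservative peaks on Y were intergenic and far from starts. A pair of them, with pooled signals of 103 and 88.4, lay between ARY and Su(Ste):CR42422 inside an annotated opus transposable element, and both were in replicate 2's list alone, at 74.99 and 58.2. The other had a signal of 71.9, lay between Su(Ste):CR42424 and FDY, and was in neither list. The 51 bases at the stronger summit in opus occurred 30 times in the reference.

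The 5 summits farthest from any start all had a pooled signal under the median of 100.3. On 3R, left of Myo81F, they lay 524963, 426588 and 277367 bp from the nearest start, with pooled signals of 64.8, 98.1 and 89.0. All 3 windows were fully soft-masked and occurred 7, 1210 and 8 times in the reference. The others lay between Myo81F and Pzl (68.1) and between Dbp80 and lncRNA:CR46482 on 3L (74.3), the latter in a gap of 399173 bp. None of the 5 was in both own lists.

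Repeats at the summits were counted by window and by base. Soft-masked bases, which mark repeats and low-complexity DNA, made up over 50% of the summit window in 41 of the 390 peaks (10.5%, 95% Wilson interval 7.84 to 13.95), and in 21.8% of the positions of the eligible genome. Counted at the summit base alone, 21.5% of the peaks were masked, against 29.3% of the eligible bases. By window, the measure that gave 10.5% above, the share was 9.77% in far peaks inside genes and 15.1% in start peaks. Annotated transposable elements held 10 intergenic summits (2.56%) and 11.1% of the eligible bases. The eligible genome keeps repeats whether or not reads can be placed in them. How far this lowers the shares of peaks in repeats was not tested. The 51 bases at the summit occurred more than once in the reference for 6 peaks, of which 1 was in both own lists.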

How the data were processed

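Chromatin immunoprecipitation and sequencing of CG14667-eGFP from whole embryos was analysed in 2 biological replicates of 1 group. Peaks are on dm6 and a control is named, per the labels. Which aligner and caller were run is not given in the sources used. Per peak, the authors deposited a signal of unstated scale, a score from the irreproducible discovery rate (IDR), the −log10 of a q-value and the summit's offset, and ranked lists add a global IDR. Only peak lists were used, so the depth of each replicate is unknown, and the 16 columns of per-replicate values in the series' lists were left out because no label assigns them.

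The intergenic peaks, gene lists and words were chosen with earlier results of these data known, and the signal terciles, width classes and searches for copies after the values were seen. Summits are 1-based. Gaps run between merged gene bodies of Ensembl release 115 on dm6 (18277 genes, 24111 starts). Sequence came from the RefSeq copy of dm6. Named genes are those flanking the 20 strongest peaks, all peaks on 4 and Y, gaps with 3 or more peaks, the 3 longest and shortest gaps, the 5 farthest summits, the peaks nearest the 1000 bp limit, and up to 4 per list. Shares carry 95% Wilson intervals and medians order-statistic intervals, both for counting error only. No test was made. Alternatives were other lists, limits, annotations and windows. Distance and overlap functions were tested on simulated data (Python 3.11.15, numpy 2.4.6, scipy 1.17.1, matplotlib 3.10.9).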

Additional observations from a re-analysis of the deposited data

How the results depend on the processing

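Results were recomputed with the other thresholded list, a global IDR of 0.001 or less, limits of 500 or 2000 bp from starts, protein-coding genes alone, other windows and overlaps, each replicate's list left out, and 2 settings chosen after seeing the data (the strongest of overlapping peaks, and no peaks with copies elsewhere). The GC difference, the only recomputed result with a sign, stayed negative. The others were counts, medians and shares of the intergenic peaks alone. Comparisons with other peaks, with the eligible genome or between gene lists were not among the recomputed values. Under these alternatives 79 values stayed within the 95% interval of the main value or, for counts of peaks and gaps, within 1.5 times it, 22 moved beyond that, and the cause of those shifts was not tested.

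At a global IDR of 0.001 or less there were 166 intergenic peaks in 133 gaps, 94.6% of them in both own lists, with a median signal of 161.45, gap of 11259 bp, gene-end distance of 3379 bp, start distance of 3426 bp and GC difference of −12.7. The other list gave 39.1% in both lists and a median signal of 92.5, and 50% reciprocal overlap gave 38.5% in both. A limit of 500 bp gave a median gap of 11188.5 bp and start distance of 3381.5 bp. A limit of 2000 bp gave 17465.5, 5410 and 5613 bp for gap, gene end and start, and protein-coding genes alone 21841, 5243.5 and 5849 bp. Flanks 1000 bp away gave a GC difference of −6.45, and the summit base alone 21.5% masked. Using 1 replicate's list at a time gave 247 to 317 peaks.

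Shares in both lists and pooled signals have no value without a replicate. No paired analysis was possible because there is 1 group. Depth is unknown, so absence of a peak in a list sets no limit on binding.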
